A study of Homo sapiens with 14 samples.

Results

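Aminoacyl-tRNA synthetases are the enzymes that join each amino acid to its tRNA. Human cells hold a set for the cytosol, whose gene names mostly end in 1, and a set for the mitochondrial matrix, encoded in the nucleus and ending in 2. The promoters of 35 of these genes were examined, 19 of cytosolic and 16 of mitochondrial enzymes, among 19970 protein-coding genes on chromosomes 1 to 22 and X. A promoter peak of a gene was a ZNF143 ChIP-seq peak whose centre lay from 2 kb upstream to 1 kb downstream of any of its GENCODE transcription start sites (TSSs) in hg38. The rule used gene names and positions only. It found 34 such peaks among the 20429 of untreated cells and 38 among the 35287 after dTAG-V1.

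The cells were ZNF143-FKBP HEK293T cells, a human embryonic kidney line from which a single clone (ZD29) was used, in which ZNF143 carries a tag that dTAG-V1 turns into a target for degradation. Both groups carried the tag. The untreated group held 4 samples and the treated group 4 samples exposed to 0.5 µM dTAG-V1 for 30 min, all precipitated with the Proteintech antibody against ZNF143. Each group was represented by 1 list of MACS2 peaks with no value for single samples, so no difference between groups was tested. Ranks and fold enrichments belong to their own list and no depth is given for it.

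ZNF143 is a zinc finger transcription factor that binds the SBS, a promoter element with a core often written as a CCCA stretch, alone or extended on its 5′ side by an ACTACA stretch. It is known at promoters of genes for basic cell functions, those of nuclear-encoded mitochondrial proteins among them. CTCF, the zinc finger protein that marks loop anchors, binds a different element. The study used these cells to ask whether the Proteintech antibody also pulls down CTCF. The paper answered yes, in part because signal at CTCF sites persisted and grew when ZNF143 was depleted. It also reported CTCF motifs enriched in peaks of this antibody, and no signal at CTCF sites with an antibody against the HA tag. A peak of either list, with or without dTAG-V1, may thus stem from ZNF143 or from CTCF. Which protein gave a single peak was not tested here. Matrices for the short SBS (SBS1, most frequent bases CCCAGCATGCCCTGCG), the extended SBS (SBS2, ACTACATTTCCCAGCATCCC) and the CTCF element (CCACCAGGGGGCACT) were learned from the merged peaks of the odd autosomes. A stretch of a peak whose score has a probability of at most 1e-05 at a random position with genome base frequencies is called a hit.

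Sites under 5 of the peaks that stood highest are shown first, as examples of the elements scored below. The 7 synthetase genes whose leading untreated peak (the promoter peak of lowest q-value) was in the top decile of its list each held an SBS hit. The 5 hits shown have their bases in capitals and are given 5′ to 3′ on the stated strand of hg38, with 5 bases on either side of the hit and 18 in YARS2. For methionine and cysteine in the cytosol, the best hit was to the extended SBS.
MARS1 (chr12:57487997-57488026, plus strand): acggaACTCCATTTCCCGGCGTGCCtcgcg
CARS1 (chr11:3057518-3057547, minus strand): gttgaACTACAGCTCCCAGCATGCTccggg

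RARS2, YARS2 and EARS2, the mitochondrial enzymes for arginine, tyrosine and glutamate, held the short SBS.
RARS2 (chr6:87590107-87590132, minus strand): gatttCCCGCGCGCCCTCGCGgctgc
YARS2 (chr12:32755870-32755921, minus strand): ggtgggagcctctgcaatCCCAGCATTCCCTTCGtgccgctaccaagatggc
EARS2 (chr16:23557694-23557719, plus strand): ctcttCCCAGCGGCCTCTGCGggagc

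These hits matched 16 of 20 most frequent bases in MARS1 and CARS1, 14 of 16 in YARS2, 12 of 16 in EARS2 and 8 of 16 in RARS2. The chance of such a score at a random position with genome base frequencies was 4.11e-10 for CARS1, the strongest, and 5.56e-07 for YARS2, the weakest. This is not the chance in a promoter. In windows from 250 bp upstream to 50 bp downstream, 9.01% of protein-coding genes without a promoter peak held an SBS hit at 1e-06. Of those with a promoter peak, 19.2% did. In the untreated list the peak summit lay 31 bp from the hit in MARS1, 24 bp in YARS2, 16 bp in RARS2, 12 bp in EARS2 and 9 bp in CARS1. Over all synthetase genes with an SBS hit, summit and best hit were at most 50 bp apart at 11 of 18 genes without treatment and at 9 of 21 after dTAG-V1. No such share was computed over all protein-coding genes, and the difference between the lists was not tested. Of the 5, MARS1, RARS2, YARS2 and EARS2, lie on even chromosomes, which the matrices were not learned from.

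Most synthetase promoters carried a peak. In the untreated list 30 of 35 genes had a promoter peak (85.7%), against 40.5% of all protein-coding genes. In the dTAG-V1 list the count was 34 of 35 (97.1%), against 48.2%. Peaks of both lists overlapped at 29 of the 35 genes, against 35.6% of protein-coding genes. Among genes with a peak in a single list, 4 of 35 were found in the dTAG-V1 list alone (11.1% of all protein-coding genes), and 0 of 35 in the untreated list alone, which allows a share of up to 8.57% (3.37% of all protein-coding genes).

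Cytosolic and mitochondrial enzymes were not distinguished by these counts. An untreated peak was present at 17 of 19 cytosolic genes (89.5%, 95% Wilson interval 68.6 to 97.1) and at 13 of 16 mitochondrial genes (81.2%, 57.0 to 93.4). The difference was 8.22 percentage points, with an interval from −15.9 to 33.6 (p = 0.642, two-sided Fisher's exact test, adjusted p = 1 over 5 comparisons). In the dTAG-V1 list the counts were 18 of 19 and 16 of 16, a difference of −5.26 points (−24.6 to 14.6, exact p = 1). Overlapping peaks in both lists were found at 16 of 19 and 13 of 16, a difference of 2.96 points (−22.0 to 29.3, exact p = 1). Intervals this wide leave room for differences of 10 points or more in either direction. The genes are not independent draws either, since HARS1 and HARS2 share a promoter peak.

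**Figure D1:**
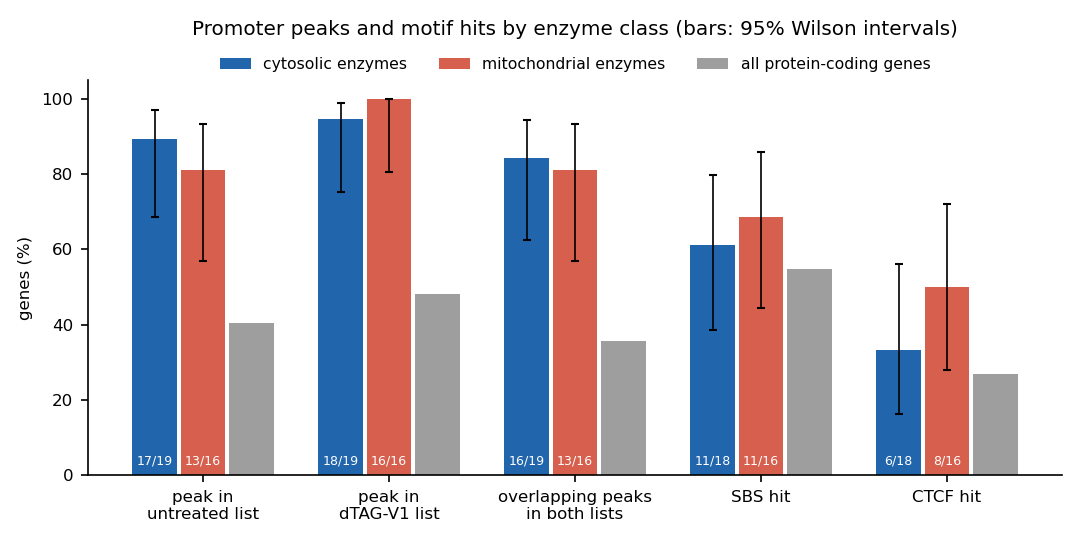
Share of genes (y axis, %) with a promoter peak in each list, with overlapping peaks in both lists, and, among genes with a promoter peak in either list, with an SBS or a CTCF hit. Blue bars are cytosolic and red bars mitochondrial enzymes with 95% Wilson intervals and their counts, and grey bars are all protein-coding genes; the intervals of both classes overlap in every pair.

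Among the cytosolic enzymes, LARS1, the leucyl-tRNA synthetase and a sensor of leucine for mTORC1, and MARS1, the methionyl-tRNA synthetase, had the highest peaks. The LARS1 peak (chr5:146182433-146183049) ranked 71 without treatment, with a 32.0-fold enrichment, and 15 after dTAG-V1, with a 32.1-fold enrichment. The MARS1 peak (chr12:57487718-57488282) ranked 73 and 58, with enrichments of 35.3-fold and 32.9-fold. CARS1, the cysteinyl-tRNA synthetase, followed at ranks 727 and 697 (chr11:3057338-3057947), with 35.3-fold and 29.2-fold. All 3 kept their summits within 13 bp between the lists, all 3 summits lay 86 to 101 bp upstream of the canonical TSS, and none of these peaks held a CTCF hit.

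In the mitochondrial set the highest untreated peaks belonged to RARS2, YARS2, CARS2 and EARS2. RARS2, the mitochondrial arginyl-tRNA synthetase, ranked 1036 with a 31.4-fold enrichment in the untreated list (chr6:87589783-87590472) and 1306 with 17.7-fold in the dTAG-V1 list. YARS2, the tyrosyl enzyme, ranked 1262 at 26.3-fold (chr12:32755208-32756238) and 1434 at 13.9-fold. The CARS2 peak ranked 1631 at 25.9-fold (chr13:110712567-110713152) and 1186 at 19.8-fold. EARS2, the glutamyl enzyme, ranked 1666 at 24.1-fold (chr16:23557018-23557806) and 1636 at 13.6-fold. The summits of these 4 genes moved by 18 bp or less between the lists.

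The share of leading untreated peaks in the top decile of the list was 3 of 17 in the cytosolic set and 4 of 13 in the mitochondrial set, against 24.8% of protein-coding genes with an untreated promoter peak. In the dTAG-V1 list 5 of 18 and 8 of 16 were in the top decile, against 27.8%. YARS1 (rank 1845) and FARSB (1986), which encodes a subunit of the phenylalanyl-tRNA synthetase, joined the cytosolic leaders there. FARS2 (2043), TARS2 (2482), LARS2 (2709) and AARS2 (2834) joined the mitochondrial ones. The decile of the longer dTAG-V1 list holds more peaks, so a gene can enter it with a later rank. LARS2 did so, at rank 2335 and 15.7-fold in the untreated list and 6.60-fold in the dTAG-V1 list. The other genes that joined had earlier ranks there than in the untreated list. The median enrichment of leading untreated peaks was 6.09-fold over 17 cytosolic genes and 7.61-fold over 13 mitochondrial genes, against 5.19-fold over all protein-coding genes with a peak. In the dTAG-V1 list the medians were 3.29-fold over 18 genes and 6.30-fold over 16, against 3.66-fold. Both classes spread widely over the list, from rank 71 to 18303 in the untreated cytosolic set and from 1036 to 13599 in the mitochondrial set.

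**Figure D2:**
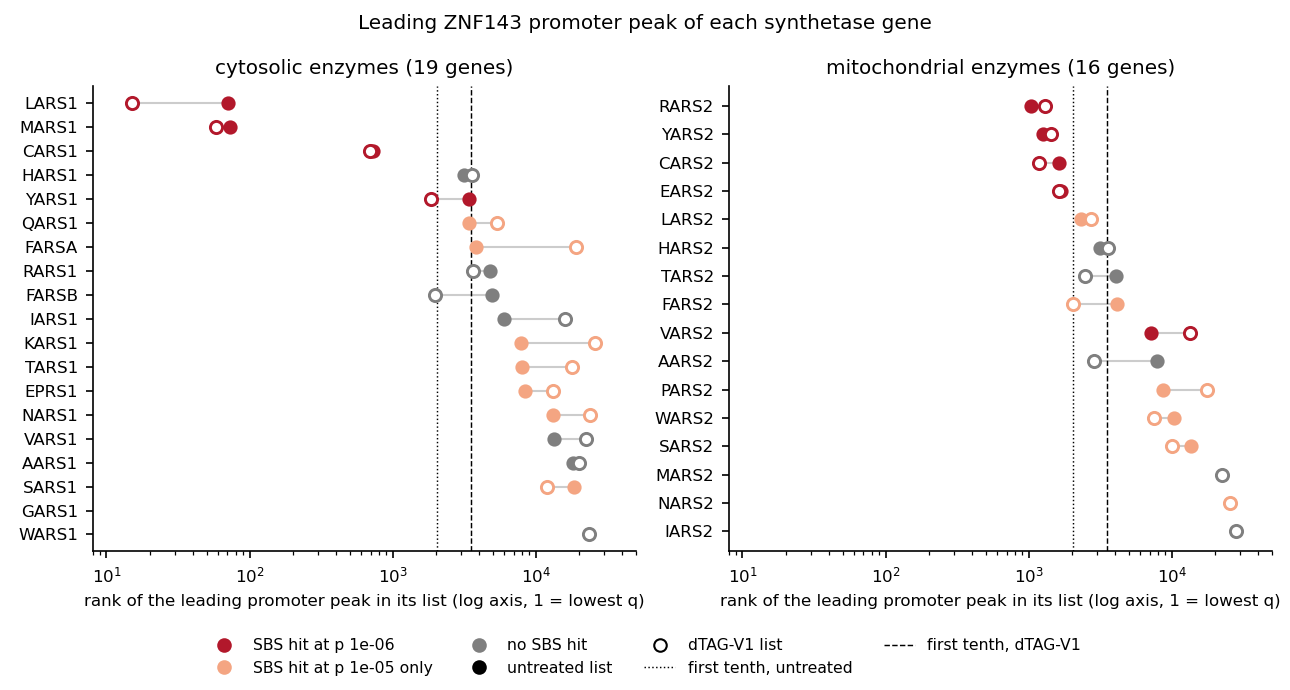
Rank of the leading promoter peak of each gene (x axis, log scale, 1 is the lowest q-value) in the untreated list (filled) and the dTAG-V1 list (open), for 19 cytosolic genes on the left and 16 mitochondrial genes on the right. Colour marks SBS hits, the dotted and dashed lines mark the top decile of the untreated and dTAG-V1 lists, and the 7 genes left of the dotted line in the untreated list are all dark red (SBS hit at p 1e-06); a gene with no symbol, GARS1, had no promoter peak.

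At the hit threshold of 1e-05, SBS hits were found in promoter peaks of 11 of the 18 cytosolic genes with a peak and 11 of the 16 mitochondrial genes, against 54.7% of protein-coding genes with a peak. CTCF hits were found in 6 of 18 and 8 of 16, against 26.9%. In peaks of the untreated list alone the CTCF counts were 2 and 4, against 19.6%. With canonical TSSs only, 3 cytosolic genes held a CTCF hit, and within 100 bp of the summit 5 mitochondrial genes did. Over all members of each class the difference was −10.9 points for SBS (−38.4 to 20.0, exact p = 0.727) and −18.4 points for CTCF (−45.8 to 13.0, exact p = 0.317), each with an adjusted p of 1. In the cytosolic set 8 of the 18 genes held SBS hits without CTCF hits, 3 the reverse, 3 both and 4 neither. In the mitochondrial set these counts were 6, 3, 5 and 2 of 16. Over all protein-coding genes with a promoter peak the shares were 39.82%, 11.98%, 14.89% and 33.31%, in the same order. The difference of either class from these shares was not tested. Hits were counted over all promoter peaks of a gene, so those of 1 gene need not lie together. In KARS1 the SBS and CTCF hits lay in separate peaks. In LARS1 the CTCF hit was in a separate peak, 52001 bp downstream of the canonical TSS. The CTCF hit of AARS1 lay 21789 bp downstream of its canonical TSS. In promoter windows of 250 bp upstream to 50 bp downstream, an SBS hit at this threshold was in 6 of 19 cytosolic and 6 of 16 mitochondrial genes (31.6% and 37.5%), against 42.7% of protein-coding genes with a promoter peak and 31.9% of those without one. A CTCF hit was in 2 of 19 and 4 of 16 (10.5% and 25%), against 11.8% and 8.73%. In peaks, hits were searched over the whole width. Leading dTAG-V1 peaks had median widths of 696.5 bp (cytosolic) and 772.5 bp (mitochondrial), against 566 bp over all protein-coding genes. Leading untreated peaks had 561 and 755 bp, against 529 bp. The part of width in the hit counts was not tested.

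A stricter threshold of 1e-06, added after seeing the data, left SBS hits in 9 of the 34 genes with a peak, against 27% of protein-coding genes with a peak. They were CARS1, LARS1, MARS1 and YARS1 (4 of 18) and CARS2, EARS2, RARS2, VARS2 and YARS2 (5 of 16). All 7 genes with a leading untreated peak in the top decile were among them, as were 82% of the protein-coding genes in that decile. Of the other 23 genes with an untreated peak only YARS1 and VARS2 were, as were 16.9% of protein-coding genes further down the list. In the dTAG-V1 list 8 of 13 top-decile genes held such a hit (4 of 5 cytosolic and 4 of 8 mitochondrial), against 67% of protein-coding genes, and 1 of the other 21, against 12.4%. A hit in any promoter peak of either list counted, not only in the leading peak. The YARS1 hit lay in a further untreated peak, at rank 13431, and 614 bp from the dTAG-V1 summit. The leading untreated peak of YARS1 held no SBS hit. The VARS2 hit lay in its untreated peak and not in its dTAG-V1 peak. The matrices were learned from peaks of the same lists, so these counts are a description.

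**Figure D3:**
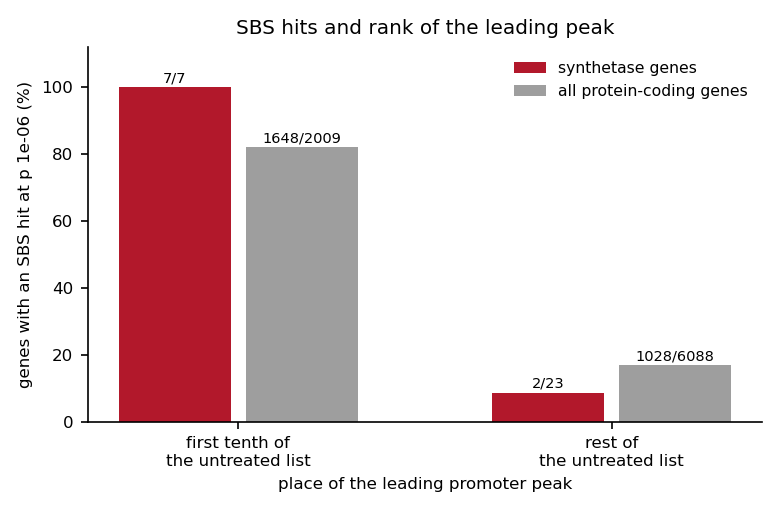
Share of genes (y axis, %) with an SBS hit at p 1e-06 in any promoter peak of either list. Genes are split by whether the leading untreated promoter peak was in the top decile of the list or below it (x axis). Red bars are synthetase genes and grey bars all protein-coding genes with an untreated promoter peak, with counts above the bars; the red bars stand at 7 of 7 and 2 of 23 genes.

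CTCF hits at 1e-06 remained at 3 genes, WARS1, EARS2 and YARS2, against 12.7% of protein-coding genes with a peak. In EARS2 the CTCF hit lay 184 bp from the untreated summit, whereas the SBS hit lay 12 bp from it. In YARS2 it lay 516 bp from the dTAG-V1 summit, and the SBS hit 8 bp from that summit. In WARS1, which had no SBS hit, the CTCF hit lay 11 bp from the summit of a dTAG-V1 peak.

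TARS2, RARS1 and AARS2 had overlapping peaks in both lists and CTCF hits without SBS hits. The hit of AARS2 lay in its dTAG-V1 peak alone, 172 bp from the summit, and its untreated peak held none. The hit of TARS2, the mitochondrial threonyl enzyme, is shown as an example of a weaker CTCF match, with a chance of 5.84e-06 at a random position and 8 of 15 most frequent bases.
TARS2 (chr1:150487292-150487342, plus strand): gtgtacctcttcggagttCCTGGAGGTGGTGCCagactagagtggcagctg

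The TARS2 hit lay 36 bp from the untreated summit and 102 bp upstream of the canonical TSS. TARS2 ranked 4065 without and 2482 with dTAG-V1. RARS1, the cytosolic arginyl enzyme, ranked 4751 and 3654. AARS2, the mitochondrial alanyl enzyme, ranked 7838 and 2834. Each of these 3 peaks stood higher in the dTAG-V1 list, also as a share of its length, as did 79.5% of the 629 protein-coding genes with such a pair and CTCF hits alone.

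At 29 genes the leading untreated peak overlapped a dTAG-V1 promoter peak, which in SARS2 was the second peak of that list. Of these pairs, 22 stood higher in the dTAG-V1 list when ranks were taken as a share of the list, against 72.3% of protein-coding genes with such a pair. That is the position of a peak among the peaks of its own list and says nothing of the amount of signal. The dTAG-V1 list is longer, at 35287 peaks against 20429. A peak can thus stand higher as a share of it with a later rank, as RARS2 did (1036 and 1306). The 7 genes that stood lower were FARSA, IARS1, KARS1, NARS1, PARS2, TARS1 and VARS2. FARSA, a subunit of the cytosolic phenylalanyl enzyme, went from rank 3838 (8.46-fold) to 19035 (3.10-fold). Its partner subunit FARSB went the other way, from 4894 (7.57-fold) to 1986 (10.8-fold). IARS1, the isoleucyl enzyme, went from 6002 to 15841, and KARS1, whose transcripts encode the cytosolic and the mitochondrial lysyl enzyme, from 7909 to 25931. Summits of the pair lay within 50 bp of each other in 21 of the 29 genes, against 64.8% of protein-coding genes. VARS2 was the pair farthest apart, with an overlap of 38 bp and summits 1348 bp apart.

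Among the 35 genes, 4 had a peak in the dTAG-V1 list alone, WARS1 among the cytosolic enzymes and IARS2, MARS2 and NARS2 among the mitochondrial ones. Their leading peaks were low in that list. WARS1, the tryptophanyl enzyme, ranked 23382 at 2.97-fold (chr14:100377951-100378221), and a further peak of it ranked 24198. MARS2, the mitochondrial methionyl enzyme, ranked 22522 at 3.03-fold (chr2:197704863-197705161), and NARS2, the asparaginyl enzyme, ranked 25527 at 2.67-fold (chr11:78574612-78575849). IARS2, the isoleucyl enzyme, ranked 28114 at 2.48-fold (chr1:220113182-220113731), in intron 11 at an internal TSS, 19198 bp downstream of the canonical TSS. The nearest untreated peak lay 9210 bp from the canonical TSS of MARS2, 25134 bp from that of IARS2, 40695 bp from that of WARS1 and 158142 bp from that of NARS2. When the dTAG-V1 list was shortened to its 20429 best peaks, all 4 lost their call, as did KARS1, NARS1 and VARS1. A dTAG-V1 peak then remained at 14 of 19 cytosolic and 13 of 16 mitochondrial genes. Over all protein-coding genes the share with a dTAG-V1 peak went from 48.2% to 33.4%. By the study's methods an untreated peak had to be found in each of 4 replicates and a dTAG-V1 peak in any of them. Whether the deposited lists were built by these rules is not stated, and the part of that difference in these 4 calls was not tested.

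GARS1 had no promoter peak in either list. It encodes both the cytosolic and the mitochondrial glycyl enzyme, and mutations in it are a known cause of inherited neuropathy. The nearest peaks lay 30554 bp upstream of its canonical TSS in untreated cells and 18721 bp upstream after dTAG-V1. Its most upstream TSS, at chr7:30580533, lay closer to both peaks than the canonical TSS at chr7:30594878. AARS1, the cytosolic alanyl enzyme, had a peak in each list at different places. Its untreated peak (chr16:70289265-70289490, rank 18281) lay in intron 1, with the summit 147 bp downstream of the canonical TSS, and its dTAG-V1 peak (chr16:70267413-70267960, rank 19850) lay in exon 9 at an internal TSS with a CTCF hit 23 bp from the summit.

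Within the window that chose the peaks, the median distance from the peak centre to the nearest TSS was 41 bp for cytosolic and 91 bp for mitochondrial genes in the untreated list, against 147 bp for all protein-coding genes. The peak nearest to the inner edge of the window was a second SARS1 peak, 167 bp inside the downstream limit, and the nearest outside was a dTAG-V1 peak of FARS2, 166 bp beyond the upstream limit. In LARS1 the second peaks of both lists lay far inside the gene, near internal TSSs, with summits 52611 and 52011 bp downstream of the canonical TSS, at ranks 20274 and 22578.

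**Figure D4:**
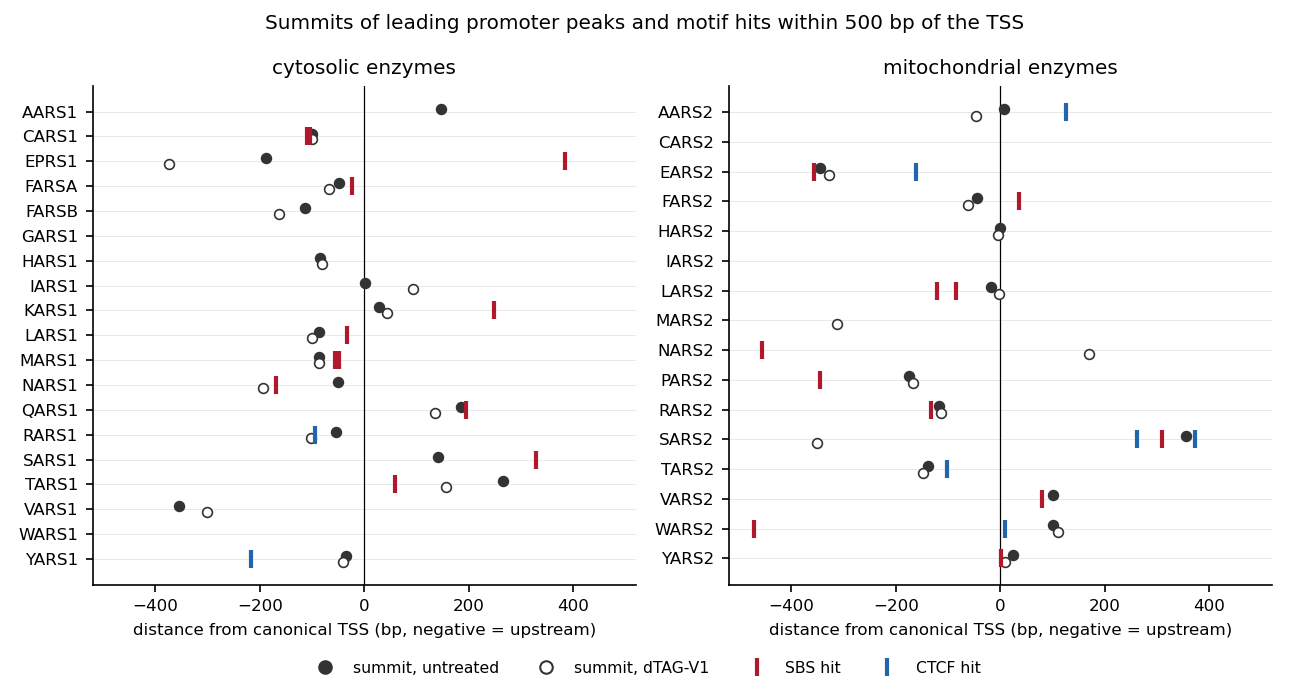
Summits of the leading promoter peaks (filled, untreated; open, dTAG-V1) and SBS (red) and CTCF (blue) hits of any promoter peak, by distance from the canonical TSS (x axis, bp, negative upstream), for the cytosolic genes on the left and the mitochondrial genes on the right. Positions beyond 500 bp are not drawn, which leaves the rows of CARS2, GARS1, IARS2 and WARS1 empty; summits of both lists fell close together in CARS1, MARS1, RARS2 and YARS2.

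Several of these promoters are shared with a neighbour transcribed the other way. A protein-coding TSS on the opposite strand lay within 1000 bp upstream of the canonical TSS in 3 of 19 cytosolic and 5 of 16 mitochondrial genes, against 9.49% of all protein-coding genes and 15.4% of those with a promoter peak. HARS1 and HARS2, the cytosolic and mitochondrial histidyl enzymes, face each other across 85 bp. They shared a peak in each list, at rank 3139 and 11.7-fold in the untreated list (chr5:140691166-140691854) and at rank 3574 and 6.0-fold in the dTAG-V1 list, with neither an SBS nor a CTCF hit. The other pairs were KARS1 with TERF2IP (108 bp), RARS2 with ORC3 (148 bp), SARS2 with MRPS12 (181 bp), YARS1 with S100PBP (295 bp), EARS2 with UBFD1 (377 bp) and FARS2 with LYRM4 (563 bp). MRPS12 encodes a protein of the mitochondrial ribosome, LYRM4 a factor of mitochondrial iron-sulphur cluster assembly and ORC3 a subunit of the origin recognition complex. A peak in such a promoter cannot be assigned to either gene.

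For 11 of the 30 genes with an untreated peak, the leading peak was also a promoter peak of another protein-coding gene, against 33.9% of all protein-coding genes. CARS2 was such a case: its summit was at −6827 bp from the canonical TSS, close to an alternative TSS of CARS2 and in the promoter of ING1, a gene for a chromatin reader. The MARS1 peak also fell in the window of ARHGAP9.

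Other elements known from such promoters were searched by their letters on both strands of windows from 250 bp upstream to 50 bp downstream of the TSS. RefSeq (GRCh38.p14) supplied these for 30 of the 35 genes, and hg38 at the canonical TSS for LARS1, VARS1, YARS1, AARS2 and VARS2. The ETS element ACTTCCGG was in 4 of 19 cytosolic promoters (CARS1, HARS1, NARS1 and WARS1) and 3 of 16 mitochondrial ones (EARS2, HARS2 and PARS2), against 6.33% of 15320 promoters. HARS1 and HARS2 contain the same stretch, so their matches are the same bases. The NRF1 element GCGCATGCG was in 2 of 16 mitochondrial promoters, MARS2 and VARS2, against 2.74%, and in 0 of 19 cytosolic ones, which allows a share of up to 15.8%. The amino acid response element TGATGNAAT, known to be bound by ATF4 in amino acid shortage, was in TARS1 alone, against 0.614% of all promoters, and in 0 of 16 mitochondrial promoters, which allows up to 18.8%. It is shown because its centre lies 5 bp downstream of the TSS of TARS1, the gene of the cytosolic threonyl enzyme. The element is on the minus strand, so the capitals on the plus strand are its reverse complement.
TARS1 (chr5:33440956-33440984, plus strand): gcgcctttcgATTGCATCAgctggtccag

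The TARS1 peak ranked 8035 in the untreated list at 4.17-fold (chr5:33440321-33441371) and 17972 in the dTAG-V1 list.

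Genes that work beside the synthetases were taken from a list of 14, made up of the scaffold of the multi-synthetase complex, the mitochondrial amidotransferase that completes glutaminyl-tRNA, formylation, elongation factors, selenocysteine and the removal of wrong amino acids. A promoter peak was found for 13 of 14 in untreated cells and for 12 of 14 after dTAG-V1, and overlapping peaks in both lists for 12, against 40.5%, 48.2% and 35.6% of all protein-coding genes. SBS hits were in 8 and CTCF hits in 3 of the 13 genes with a peak, against 54.7% and 26.9%. GATB, a subunit of the amidotransferase, ranked 56 and 90, with 36.9-fold and 32.7-fold enrichments, near LARS1 and MARS1. TUFM, the mitochondrial elongation factor, ranked 705 and 409, EEF1A1, its cytosolic counterpart, 1187 and 662, and AARSD1, which hydrolyses wrongly charged alanyl-tRNA, 1448 and 2108. MTFMT, the methionyl-tRNA formyltransferase, had no promoter peak in either list, and DTD1 had an untreated peak alone.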

How the data were processed

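Peaks obtained with the Proteintech antibody against ZNF143 came as 2 lists, each for 4 of the 14 samples of the series. The 6 CTCF samples were not analysed here. The authors mapped reads to hg38 with BWA, removed duplicates with Picard and called narrow peaks with MACS2. The deposited lists give per peak a score, the fold enrichment (a ratio over local background), the −log10 q-value, and the summit offset. They hold no replicate columns, so leaving out or pairing replicates was impossible, and their depth is unknown. Peak names of the untreated list mention DMSO; the labels were followed. Ranks followed the q-value.

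Peaks were assigned to TSSs of all GENCODE 44 transcripts. A gene was called shared where peaks of both lists overlapped by at least 1 bp. Matrices were learned by 10 iterations from seeds with up to 2 mismatches, at p 1e-06 and with genome base frequencies. Classes were compared by Fisher's exact test, with Benjamini-Hochberg adjustment over 5 comparisons, Wilson intervals and Newcombe intervals for differences, which cover counting over genes only. Upper shares given for counts of 0 were 3 divided by the number of genes, and are not Wilson limits. Scores and intervals were tested on simulated data. Python 3.11.15, scipy 1.17.1 and samtools 1.23.1 were used.

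Genes named with coordinates were those in the top decile of the untreated list, in 1 list alone or sharing a peak with another member. FARSA, FARSB, IARS1, KARS1, AARS1, GARS1, VARS2, TARS1, TARS2, RARS1, AARS2 and the named partner genes were chosen after their values were seen. Members, lists and tests were chosen with earlier results of these data known. The hit sequences of LARS1 and CARS2 are not reported here.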

Additional observations from a re-analysis of the deposited data

How the results depend on the processing

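No paired analysis was possible because the lists hold no values for single replicates, and leaving out replicates could not be run for the same reason. Of 132 results recomputed under another setting, 118 stayed within 1.5 times the main value or kept their side of the threshold, and 14 moved, all of them counts of genes with a motif hit. The cause was not tested. Some of the 118 could not move, such as untreated counts when the dTAG-V1 list was shortened or the overlap rule changed. Counts close to all genes of a class could not rise to 1.5 times. The tally is thus no measure of how stable the results are. CTCF hits in cytosolic genes (6 of 19) fell to 3 with canonical TSSs only and rose to 11 at a hit threshold of 5e-05 (49.9% of protein-coding genes with a peak). Searching 100 bp on either side of the summit left 7 cytosolic genes with SBS and 5 mitochondrial genes with CTCF (39.5% and 18.6%). A fixed pattern with at most 3 mismatches left 1 cytosolic gene with SBS and 1 with CTCF, and 1 and 2 mitochondrial genes (8.33% for SBS and 8.81% for CTCF). Settings added after seeing the data were the threshold of 1e-06, with 4 cytosolic genes for SBS and 1 for CTCF, and 5 and 2 mitochondrial genes (27% and 12.7%), the untreated list alone, with CTCF in 2 cytosolic and 4 mitochondrial genes (19.6%), and the dTAG-V1 list alone, with SBS in 10 and 11 genes (49.5%) and CTCF in 6 and 8 (26.7%). Over 48 alternative tests between the classes the lowest p was 0.245 and the lowest adjusted p 0.706 (Fisher's exact test). With canonical TSSs only, CARS2 lost its peak in both lists and AARS1, IARS2 and VARS2 theirs in the dTAG-V1 list. Over all protein-coding genes the share with a peak went from 40.5% to 35.4% in the untreated list. In the dTAG-V1 list it went from 48.2% to 41.2%. With a −log10 q-value of at least 5, AARS1 and SARS1 lost their untreated peaks, and 37.7% of protein-coding genes had one.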
